A study of Mus musculus with 6 samples.

Results

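Pvalb neurons of the mouse dorsal root ganglion were taken as the cells with at least 3 unique molecular identifiers (UMIs) of Pvalb, at least 2 of Nefh, at least 1 in the sum of Spp1, Runx3 and Ntrk3, and fewer of Calca than of Pvalb and Nefh together. The rule held for 730 of 21685 cells, or 3.37%. Dissociated ganglion cells of 6 mice had been profiled with a droplet kit that reads transcript 3′ ends, in 3 groups of 2 mice, 1 of each sex. Mice 654 (female) and 657 (male) were Ttpa-/- animals on a vitamin E deficient diet, aged 6 months. Mice 670 (male) and 671 (female) were Ttpa-/- animals on a vitamin E supplemented diet, also aged 6 months. Mice 698 (female) and 699 (male) were Ttpa+/+ animals on a basal vitamin E diet, aged 5 months, and are called wild type here. Genotype, the basal diet and the younger age, in which wild type differs from both Ttpa-/- groups, cannot be told apart.

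Ttpa encodes the alpha-tocopherol transfer protein, with which the liver returns vitamin E to the circulation, and its loss in people causes ataxia with vitamin E deficiency, in which the sense of limb position fails. Proprioceptors supply muscle spindles and tendon organs. Their somata are large, their axons are thick, fast and myelinated, and they are known by the calcium buffer parvalbumin (Pvalb), the neurotrophin-3 receptor TrkC (Ntrk3), the transcription factors Runx3 and Etv1 and osteopontin (Spp1). Pvalb is also found in some large myelinated touch neurons.

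Depth differed between mice. Pvalb neurons numbered 86 and 127 in the deficient mice 654 and 657, 78 and 162 in the supplemented mice 670 and 671, and 106 and 171 in the wild-type mice 698 and 699. Their summed UMIs were 251767 and 791766 in deficient mice, 239071 and 784506 in supplemented mice, and 545918 and 1007676 in wild-type mice. The median UMI count per cell was 2670.5 and 5344 in deficient mice, 2875.5 and 4400 in supplemented mice, and 4473 and 5486 in wild-type mice. Mice 654 and 670, 1 in each Ttpa-/- group, were thus the shallowest, and 1 UMI was worth 3.97 and 4.18 CPM (UMIs per 1000000 UMIs of the Pvalb neurons of a mouse) there, against 0.992 to 1.83 CPM in the other 4 mice. The labels do not say whether animals shared a litter, so p-values measure the spread between these mice.

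Pvalb neurons were 2.10% and 4.44% of the cells in deficient mice, 1.92% and 4.28% in supplemented mice, and 3.08% and 4.98% in wild-type mice. The ranges of the groups overlapped, and the low value of each Ttpa-/- group belonged to its shallow library. The mean share was 3.27% ± 1.66 in deficient mice and 4.03% ± 1.34 in wild-type mice (SD, n = 2 each), a difference of -0.76 percentage points with a two-sided exact permutation p of 0.667, where 0.333 is the smallest p that 2 against 2 mice allow. The supplemented mean was 3.10% ± 1.67, or -0.93 points from wild type (exact permutation p = 0.667), and the 4 Ttpa-/- mice together differed from the 2 wild-type mice by -0.85 points (exact permutation p = 0.467, smallest possible 0.0667). A rule on UMIs finds fewer cells where cells are shallow. Cells were therefore also thinned to 1500 UMIs before the rule was applied. Shallower cells were left out, 633 and 0 in deficient mice, 1007 and 28 in supplemented mice, and 0 in both wild-type mice, so the loss fell on the Ttpa-/- libraries. Of the cells left, the shares were 1.36% and 1.85% in deficient mice, 1.31% and 1.68% in supplemented mice, and 1.39% and 2.01% in wild-type mice. Thinned shares overlapped between groups as well. A difference in the share of Pvalb neurons was not detectable with these numbers of mice. In a suspension, fewer cells of a type and less RNA per cell, which the rule would miss, cannot be told apart.

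Ttpa was counted once among Pvalb neurons, 1 UMI in the deficient mouse 654, and was at 0 in the deficient mouse 657, both supplemented mice and both wild-type mice. It was thus near 0 in every group and the library labels could not be checked by it. Ttpa lies at chr4:20007938-20030785 on the plus strand of mm10 in the GENCODE M21 annotation, and the labels do not say which stretch was deleted.

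The members were chosen by Pvalb, Nefh, Spp1, Runx3, Ntrk3 and Calca, so the levels of these genes are no finding. Pvalb had a median of 8 UMIs per cell and a maximum of 59, and Nefh a median of 9 and a maximum of 64. Of the members, 55 stood at exactly 3 Pvalb UMIs, and 63 cells met every other part of the rule but had 2. Etv1, which the rule did not use, had a UMI in 63.6% of the cells just inside the rule and in 54.0% of those just outside. The median depth was 3556 UMIs just inside and 3972 just outside. Pvalb UMIs were not spread over the suspension: of 300 cells with 3 or more UMIs of Mrgprd, which marks unmyelinated non-peptidergic neurons, 2 (0.667%) held a Pvalb UMI at a median depth of 9216.5 UMIs, and none met the rule. The members' own median depth was 4428 UMIs. Of the members, 32 (4.38%) were called doublets, against 2.92% of all cells. Barcodes occurred in more than 1 library 261 times, and 23 members had such a barcode, of which none was shared by 2 members.

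Proprioceptor genes that the rule did not use were found in Pvalb neurons at differing shares of cells: a UMI of Etv1 was present in 83.4%, of Esrrg in 47.5%, of Nxph1 in 41.6%, of Whrn in 34.2% and of Heg1 in 24.4% of them. Their levels were compared with those of 1908 other Nefh neurons, cells with 2 or more Nefh UMIs, no Pvalb UMI and fewer Calca than Nefh UMIs. It is a description without a test, since the rule set the populations apart. Etv1, a transcription factor that mouse proprioceptors need to reach motor neurons, stood at 705 ± 72.3 CPM in Pvalb neurons and 51.8 ± 10.7 CPM in other Nefh neurons (SD, n = 6 mice each). Its level per mouse in Pvalb neurons was 794 and 639 CPM in deficient mice, 640 and 685 CPM in supplemented mice, and 797 and 678 CPM in wild-type mice. All 6 values were above the highest other Nefh value, 67.7 CPM.

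Whrn, the scaffold protein whirlin, averaged 98.0 ± 19.7 CPM in Pvalb neurons and 0.476 ± 0.443 CPM in other Nefh neurons. Nxph1, a secreted ligand of neurexins, averaged 138 ± 25.9 CPM in Pvalb neurons and 0.874 ± 0.818 CPM in other Nefh neurons. Heg1, Pcdh8, Chodl and Esrrg, which mark proprioceptor subtypes in mouse, were higher as well, with means of 82.6, 90.5, 43.2 and 151 CPM in Pvalb neurons and 3.69, 2.26, 0.460 and 17.4 CPM in other Nefh neurons. Of the 12 proprioceptor markers outside the rule that reached 20 CPM, 9 were above the other Nefh neurons in every mouse and 1, Ntng1, was below in every mouse. Among all 6565 genes at that level, 15.5% were above and 13.9% below in every mouse.

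Markers of other sensory classes went both ways. Of 4 peptidergic markers at 20 CPM, 2 were above the other Nefh neurons in every mouse and 2 below. Those above were the neuropeptide genes Tac1, at 201 CPM in Pvalb neurons and 41.3 CPM in other Nefh neurons, and Adcyap1, at 111 CPM in Pvalb neurons and 16.8 CPM in other Nefh neurons. Of 9 touch neuron (A-beta) markers at 20 CPM, 5 were below in every mouse and 1, Cntnap2, was above. Calb1, a second calcium buffer, averaged 38.1 CPM in Pvalb neurons and 123 CPM in other Nefh neurons. Ntrk2, the receptor TrkB of lightly myelinated hair follicle afferents, averaged 37.8 ± 13.7 CPM in Pvalb neurons and 384 ± 52.9 CPM in other Nefh neurons. Cadps2, which marks the same afferents, averaged 18.8 CPM in Pvalb neurons and 341 CPM in other Nefh neurons, whereas Shox2, from the same list, averaged 296 CPM in Pvalb neurons and 67.1 CPM in other Nefh neurons. Defining markers of macrophages and fibroblasts were low. The summed level of 7 macrophage genes was 2.53 to 12.5 CPM per mouse with C1qa, C1qb, C1qc, Csf1r and Aif1 at 0. That of 7 fibroblast genes was 0 to 23.8 CPM with Col1a1 at 0. Endothelial genes summed to between 20.1 and 41.8 CPM per mouse. Myelinating Schwann cell genes summed to between 125 and 218 CPM, with a mean of 471 CPM in other Nefh neurons. Red cell genes summed to 222 CPM in mouse 654, where 2 cells held the 29 UMIs of Hbb-bs, and to between 3.66 and 16.4 CPM in the other mice. Satellite glia genes summed to 536 and 666 CPM in deficient mice, 653 and 899 CPM in supplemented mice, and 932 and 727 CPM in wild-type mice, with all 10 genes detected. Their mean sum in other Nefh neurons was 817 CPM, within that range.

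A gene was set apart if it reached 50 CPM in either population, differed at least 2-fold, and did not overlap over mice. Of 3901 genes at that level, 237 (6.08%) were higher and 228 (5.84%) lower in Pvalb neurons. Differences of 8-fold or more were found for 21 higher and 17 lower genes. Beside Nxph1, Whrn and Etv1, the higher ones held Pln, the phospholamban that restrains the calcium pump of the endoplasmic reticulum, at 121 CPM in Pvalb neurons and 0.465 CPM in other Nefh neurons. Ina, the neurofilament-associated protein alpha-internexin, stood at 198 CPM in Pvalb neurons and 7.26 CPM in other Nefh neurons. Slit2, an axon guidance ligand, stood at 221 CPM in Pvalb neurons and 13.2 CPM in other Nefh neurons. The lower ones held S100a16, a calcium-binding protein, at 2.99 CPM in Pvalb neurons and 273 CPM in other Nefh neurons, and Fxyd2, a regulator of the sodium pump, at 297 CPM in Pvalb neurons and 4882 CPM in other Nefh neurons. Of 14 cytoskeletal genes at 20 CPM, 5 were above the other Nefh neurons in every mouse and 2 below. These are 35.7% and 14.3%, beside 15.5% and 13.9% of all genes. Among those above were Nefm, Map1b, Map2 and Dst, with Nefm at 1645 ± 191 CPM in Pvalb neurons and 1044 ± 149 CPM in other Nefh neurons.

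The machinery of vesicle release differed by paralog. Slc17a7, the vesicular glutamate transporter VGLUT1, stood at 504 and 466 CPM in Pvalb neurons of deficient mice, 581 and 478 CPM in those of supplemented mice, and 443 and 530 CPM in those of wild-type mice. In other Nefh neurons it stood at 122 to 208 CPM. Slc17a6, the paralog VGLUT2, ran the other way, at 85.8 ± 23.6 CPM in Pvalb neurons and 333 CPM in other Nefh neurons. The same held for the calcium sensors of release. Syt2 averaged 439 ± 41.2 CPM in Pvalb neurons and 214 ± 34.4 CPM in other Nefh neurons, whereas Syt1 averaged 118 ± 15.3 CPM in Pvalb neurons and 378 ± 46.8 CPM in other Nefh neurons. Among the vesicle SNARE genes, Vamp1 averaged 657 CPM in Pvalb neurons and 336 CPM in other Nefh neurons, and Vamp2 averaged 228 CPM in Pvalb neurons and 656 CPM in other Nefh neurons. Complexins, which clamp release, split likewise, with Cplx1 at 1757 CPM in Pvalb neurons and 1026 CPM in other Nefh neurons, and Cplx2 at 13.8 CPM in Pvalb neurons and 176 CPM in other Nefh neurons. Of 18 release genes at 20 CPM, 10 were above and 4 below in every mouse, a larger share on the higher side than the 15.5% of all genes given above, and the 4 lower ones were Slc17a6, Syt1, Vamp2 and Cplx2.

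Ion channels went both ways. Of 17 potassium and HCN channel genes at 20 CPM, 4 were above and 4 below the other Nefh neurons in every mouse, and of 9 sodium channel genes 2 were above and 4 below, beside 15.5% above and 13.9% below of all genes. Kcnc1, a potassium channel of the fast Kv3 family, averaged 191 CPM in Pvalb neurons and lay between 40.5 and 58.3 CPM in other Nefh neurons. Of the sodium channels, Scn1a averaged 316 CPM in Pvalb neurons and 180 CPM in other Nefh neurons, and Scn8a averaged 275 CPM in Pvalb neurons and 191 CPM in other Nefh neurons with ranges that touched. Scn9a, Scn10a and Scn11a, the channels of pain-sensing neurons, averaged 53.3, 8.90 and 7.02 CPM in Pvalb neurons and 199, 43.1 and 42.9 CPM in other Nefh neurons. Asic1, an acid-gated channel subunit, averaged 166 ± 10.4 CPM in Pvalb neurons and 12.3 ± 2.31 CPM in other Nefh neurons, while its paralog Asic2 averaged 70.2 CPM in Pvalb neurons and 202 CPM in other Nefh neurons. Piezo2, the stretch-gated channel on which proprioception depends, was detected in 67.9% of Pvalb neurons and averaged 278 ± 30.9 CPM there, against 516 ± 24.0 CPM in other Nefh neurons. Every Pvalb value of Piezo2, at most 330 CPM, was under every other Nefh value, at least 480 CPM. Growth factor receptors other than Ntrk3 were lower: 6 of 7 at 20 CPM were below in every mouse, among them Ngfr, the p75 receptor, at 155 ± 25.5 CPM in Pvalb neurons and 695 ± 52.1 CPM in other Nefh neurons.

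**Figure D1:**
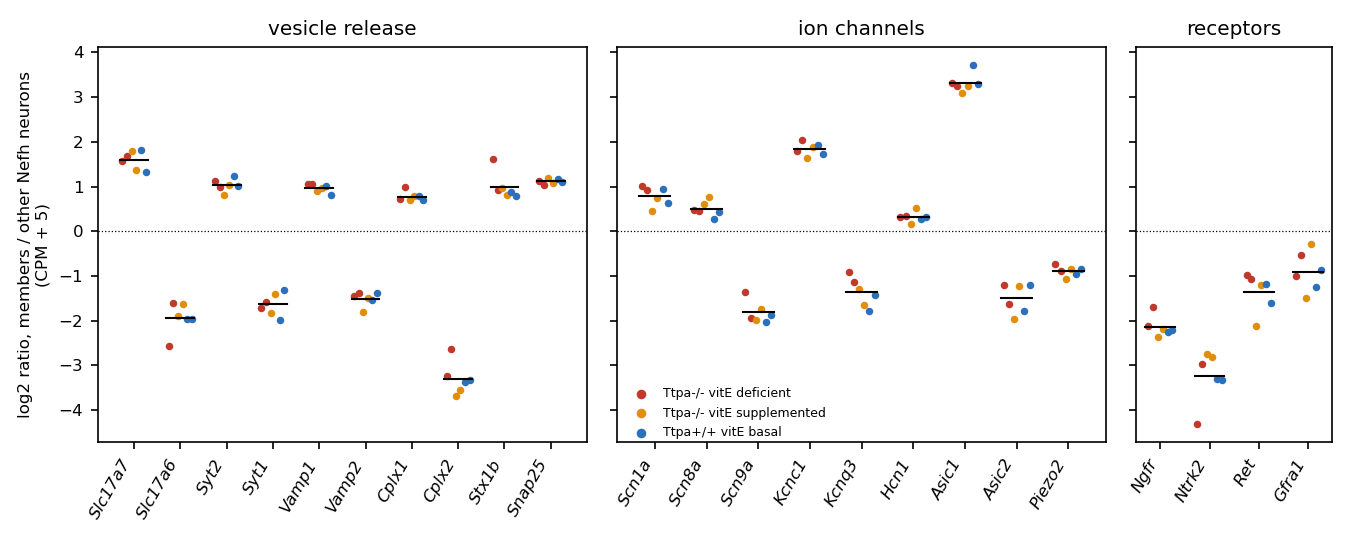
Log2 ratio of CPM + 5 in Pvalb neurons (members) over CPM + 5 in other Nefh neurons of the same mouse. Each point is 1 mouse, coloured by group, and the bar is the mean of 6 mice. Slc17a7, Syt2, Vamp1 and Cplx1 lie above 0 and their paralogs Slc17a6, Syt1, Vamp2 and Cplx2 below 0 in all 6 mice.

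Genes of vitamin E transport and of defence against lipid peroxidation were measured in the same way. Vldlr, a receptor for lipoproteins, averaged 24.5 CPM in Pvalb neurons and 9.77 CPM in other Nefh neurons, and every Pvalb value was higher. Npc2, which moves cholesterol out of lysosomes, averaged 139 CPM in Pvalb neurons and 173 CPM in other Nefh neurons, and every Pvalb value was lower. They were the 1 gene above and the 1 below in every mouse among 7 genes of vitamin E and lipid transport at 20 CPM, or 14.3% each, a share near that of all genes. Gpx4, the glutathione peroxidase that reduces lipid hydroperoxides, averaged 963 CPM in Pvalb neurons and 1054 CPM in other Nefh neurons with overlapping ranges. Gpx3, the secreted glutathione peroxidase, averaged 48.4 CPM in Pvalb neurons and 5.92 CPM in other Nefh neurons. Ftl1, the ferritin light chain that stores iron, averaged 1469 CPM in Pvalb neurons and 3748 CPM in other Nefh neurons, and Txn1, thioredoxin, averaged 285 CPM in Pvalb neurons and 694 CPM in other Nefh neurons. Elovl5, which lengthens polyunsaturated fatty acids, averaged 464 CPM in Pvalb neurons and 192 CPM in other Nefh neurons. Of 25 antioxidant genes at 20 CPM, 4 (Prdx3, Gpx3, Mgst3 and Mt2) were above in every mouse and 4 (Txn1, Prdx2, Gpx1 and Ftl1) below, a share close to that of all genes. Another gene set apart was Ppargc1a, the coactivator PGC-1alpha of mitochondrial biogenesis, at 181 ± 17.3 CPM in Pvalb neurons and 54.8 ± 5.16 CPM in other Nefh neurons. It is also on the list of 38 nuclear genes of the respiratory chain, although it is a coactivator. Of that list 3 genes (Sdha, Atp5a1 and Ppargc1a) were above in every mouse and 0 below. These shares, 7.89% and 0%, were under the 15.5% and 13.9% of all genes.

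The members were not uniform. Clustering of the 730 cells on 2000 variable genes without the rule genes gave 6 subclusters, each with cells of all 6 mice, and the genes named for them are those that define them. The largest, 245 cells led by Heg1, had a UMI of Etv1 in 98.4% of cells and of Whrn in 51.4%, the highest of the 6. A cluster of 58 cells led by Pou4f3, a transcription factor linked in mouse to tendon organ afferents, had Chodl at 162 CPM and Pcdh8 at 264 CPM, with Heg1 at 3.18 CPM and Nxph1 at 9.53 CPM. One of 83 cells led by Adcyap1, the neuropeptide PACAP, had Nxph1 at 232 CPM, Chodl at 74.5 CPM and Tac1 at 329 CPM. In those 3 clusters Etv1 had a UMI in 94.8% of cells or more.

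Another cluster departed from the proprioceptor label. Its 109 cells, led by Nrp1 and Nptx1, had a UMI of Etv1 in 18.3% of cells and of Whrn in 0 of 109, which allows a share of up to 2.75%, although their median depth, 7579 UMIs, was the highest of the 6. Of the touch neuron markers, Ret had a UMI in 69.7%, Maf in 56.0% and Calb1 in 24.8% of cells. For Calb1 the share in the other members was 2.58%. Mafa, another such marker, had no UMI in any member, and the shares of Gfra2 and Necab2 are not given. Pou4f3, named above for another cluster, had a UMI in 40.4% of the cells. Ntrk3 had a UMI in 96.3% of them and Spp1 in 32.1%. They were 14.9% of the members, and 10.3% to 19.7% in single mice.

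The remaining 2 clusters were led in part by genes of other cell types. In a cluster of 192 cells the glial genes Fabp7 and Apoe led together with small respiratory chain genes such as Ndufa11. Fabp7 had a UMI in 25.5% of its cells and Etv1 in 93.8%. In 35 of its cells over 3 UMIs came from Mrgprd, Th, Sst, Nppb, Mrgpra3, Trpm8 and Fabp7, markers of other cell types (other-type UMIs). Fabp7 is the only glial gene among them. It also leads the cluster, so that count is no separate sign of other cell types. A cluster of 43 cells was led by Fxyd2, Cd9 and Calca, had Trpv1, a channel of heat- and pain-sensing neurons, in 16.3% of cells, and Etv1 in 79.1%. Of these 43 cells, 24 (55.8%) were called doublets. Neither cluster was given a name. A finer clustering at resolution 1 gave 10 subclusters.

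**Figure D2:**
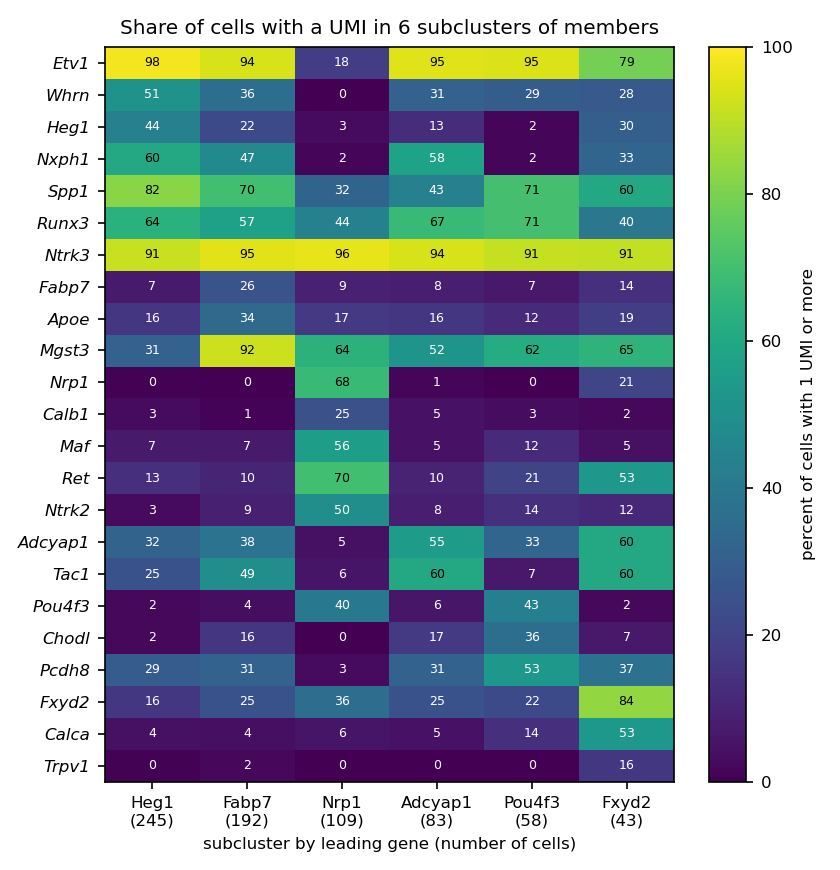
Percent of cells with at least 1 UMI of each gene (rows) in the 6 subclusters of Pvalb neurons (columns, named by leading gene with the number of cells). The Nrp1 column is low for Etv1 (18.3%) and Whrn (0%), and the Fxyd2 column is the highest for Calca and Trpv1. Median depth differs between columns, 3775 to 7579 UMIs.

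Deficient and wild-type mice were compared first in Pvalb neurons. They differ in genotype, diet and age at once, so a difference cannot be assigned to the lack of vitamin E. One gene passed. Wdfy1, an endosomal adapter of Toll-like receptor signalling at chr1:79702262-79776143 on the minus strand of mm10, had 3 and 63 UMIs in deficient mice, 11 and 36 UMIs in supplemented mice, and 7 and 14 UMIs in wild-type mice. Its levels were 11.9 and 79.6 CPM in deficient mice, 46.0 and 45.9 CPM in supplemented mice, and 12.8 and 13.9 CPM in wild-type mice. Mouse 657 was the highest of the 6, whereas the shallow mouse 654 was the lowest, so the deficient and wild-type values overlapped, and the supplemented values were both above wild type. The exact Poisson intervals, which cover counting error only, ran from 2.46 to 34.8 CPM in mouse 654 and from 61.1 to 102 CPM in mouse 657. The log2 fold change of deficient over wild-type mice was 2.11 ± 0.39 (SE), with an adjusted p of 0.00418 from edgeR's quasi-likelihood test with Benjamini-Hochberg adjustment over 7449 genes.

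Wdfy1 was 1 of 7449 genes called, or 0.0134%, and no gene was called lower. By an unadjusted p under 0.05, 291 genes stood out, or 3.91%. The call rested on mouse 657: without it the log2 fold change was -0.24 and did not pass. It was also lost with DESeq2 and with limma-voom, which called 0 genes each, with sex as a term, which matches the female and the male of each group and gave 2.03 (edgeR adjusted p = 0.131), under the stricter rule, in thinned sums, and without the Nrp1-led and Fxyd2-led clusters, where the log2 fold change was 1.87 (edgeR adjusted p = 0.767). Without the 2 shallow libraries 1 mouse was left in each Ttpa-/- group, so the count of calls there is not given.

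The next genes by p did not pass. Htr3a, a subunit of the serotonin-gated channel, stood at 23.8 and 29.0 CPM in deficient mice, 12.5 and 17.8 CPM in supplemented mice, and 9.16 and 5.95 CPM in wild-type mice (edgeR adjusted p = 0.931). D17H6S53E stood at 39.7 and 46.7 CPM in deficient mice, 25.1 and 24.2 CPM in supplemented mice, and 16.5 and 13.9 CPM in wild-type mice (edgeR adjusted p = 0.299). Prune2 stood at 1200 and 1403 CPM in deficient mice, 824 and 1183 CPM in supplemented mice, and 844 and 783 CPM in wild-type mice (edgeR adjusted p = 0.931). In all 3 the deficient values were above both wild-type values, and for Htr3a and D17H6S53E the supplemented values lay between. Lack of overlap, here and below, is a description. The smallest exact permutation p is 0.333 for 2 against 2 mice and 0.0667 for 4 against 2. The share of all genes without overlap is not given.

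Supplemented against wild-type mice gave 0 calls of 7449 (0%) with edgeR, 317 genes (4.26%) at an unadjusted p under 0.05, 0 calls with DESeq2 and 3 with limma-voom. This comparison and the one before share the wild-type mice, and both are given side by side. Wdfy1 had a log2 fold change of 1.72 ± 0.41 here and did not pass (edgeR adjusted p = 0.106). The smallest p belonged to Abhd2, a lipid hydrolase, at 330 and 370 CPM in supplemented mice and 191 and 176 CPM in wild-type mice. The groups did not overlap, and the log2 fold change was 0.93 ± 0.19 with an edgeR adjusted p of 0.0513, just outside the threshold. The deficient mice, at 226 and 284 CPM, stood between. Cartpt, a neuropeptide gene, had 0 and 4 UMIs in supplemented mice and 26 and 19 UMIs in wild-type mice (edgeR adjusted p = 0.0674), and 5 and 23 UMIs in deficient mice. Malat1, a long RNA of the nucleus, stood at 5061 and 3067 CPM in supplemented mice and 1066 and 2673 CPM in wild-type mice (edgeR adjusted p = 0.0978). It was also high in mouse 654, at 4230 CPM, so both shallow libraries were the highest. Vps8, a subunit of an endosome tethering complex, followed the same order, with 2121 CPM in mouse 654, 2167 CPM in mouse 670 and 725 to 1275 CPM in the other 4 mice. Ssna1, a microtubule-associated protein gene, stood at 20.9 and 30.6 CPM in supplemented mice and 78.8 and 62.5 CPM in wild-type mice, without overlap (edgeR adjusted p = 0.0986). In other Nefh neurons the same log2 fold change was 0.83 for Abhd2, 0.92 for Malat1 and 1.12 for Vps8. There it was -0.13 for Cartpt and -0.14 for Ssna1, and none of these passed. Without the 2 shallow libraries 1 supplemented mouse was left, so the count of calls there is not given.

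Deficient against supplemented mice, the comparison of diets within Ttpa-/-, gave 0 calls of 7449 (0%) with edgeR, with 295 genes (3.96%) at an unadjusted p under 0.05 and 0 calls with DESeq2 and with limma-voom. The smallest p belonged to Cd24a, a surface glycoprotein, at 139 and 120 CPM in deficient mice and 41.8 and 63.7 CPM in supplemented mice (edgeR adjusted p = 0.324). Gap43, a growth cone protein, stood at 39.7 and 55.6 CPM in deficient mice and 12.5 and 20.4 CPM in supplemented mice (edgeR adjusted p = 0.488). Neither passed. In both the groups did not overlap, for which 2 against 2 mice allow an exact permutation p of 0.333 at the lowest. Cd24a and Gap43 were also among the genes of the Fxyd2-led cluster, whose share of Pvalb neurons was 8.14% and 7.09% in deficient mice and 3.85% and 5.56% in supplemented mice; its part in these values was not tested. Hjurp, a histone chaperone, had 1 and 11 UMIs in deficient mice and 2 and 47 UMIs in supplemented mice, where 1 cell held 16 of them. Hjurp was also among the genes of the Fxyd2-led cluster, at 230 CPM there and 13.9 CPM in the other members. Rbm43, an RNA-binding protein gene, stood at 23.8 and 17.7 CPM in deficient mice and 4.18 and 1.27 CPM in supplemented mice, which is 1 UMI in each supplemented mouse (edgeR adjusted p = 0.825). Leaving out the 2 shallow libraries left 1 mouse in each of these groups, so no count of calls is given for it.

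The 4 Ttpa-/- mice together against the 2 wild-type mice again gave 1 call of 7449 (0.0134%), Wdfy1, with a log2 fold change of 1.92 ± 0.35 and an edgeR adjusted p of 0.00449, and 306 genes (4.11%) had an unadjusted p under 0.05. It was higher than both wild-type mice in 3 of 4 Ttpa-/- mice. DESeq2 and limma-voom called 0 genes. Leaving out the 2 shallow libraries left 1 mouse in each Ttpa-/- group, and its count of calls is not given. In other Nefh neurons Wdfy1 was at 32.0 and 77.1 CPM in deficient mice, 25 and 44.7 CPM in supplemented mice, and 13.5 and 11.8 CPM in wild-type mice. There all 4 Ttpa-/- mice were above both wild-type mice. The log2 fold change for both diets was 1.82 ± 0.31 and did not pass (edgeR adjusted p = 0.0670), nor did that for supplemented mice, 1.49 ± 0.35 (edgeR adjusted p = 0.503). That for deficient mice, 2.16 ± 0.34, passed (edgeR adjusted p = 0.0300). Pam, the enzyme that amidates neuropeptides, did not pass (edgeR adjusted p = 0.167) but did not overlap. It stood at 246 and 169 CPM in deficient mice, 176 and 249 CPM in supplemented mice, and 89.8 and 140 CPM in wild-type mice. In other Nefh neurons its log2 fold change for both diets was 0.68 ± 0.20 and did not pass (edgeR adjusted p = 0.943).

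**Figure D3:**
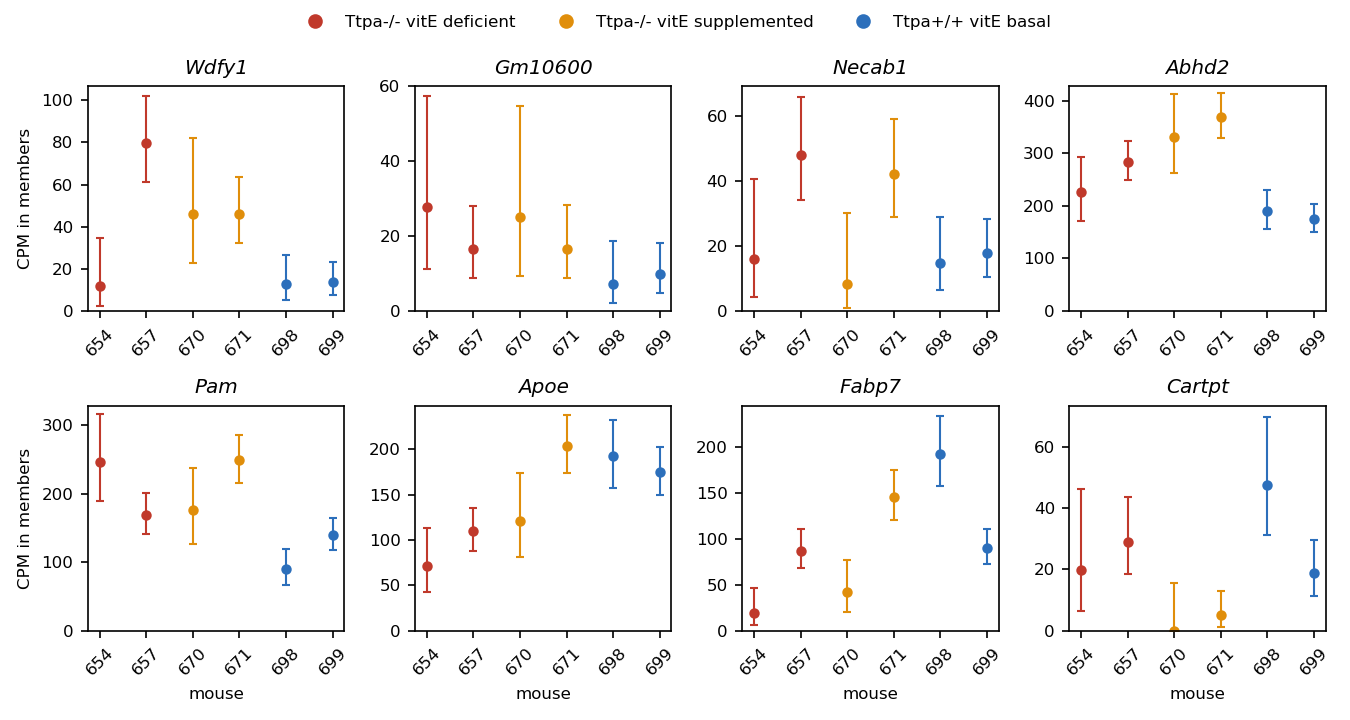
CPM of 8 genes in Pvalb neurons of each mouse, coloured by group, with exact Poisson 95% intervals that cover counting error only. Wdfy1 is at 45.9 to 79.6 CPM in 3 Ttpa-/- mice and at 11.9 to 13.9 CPM in mouse 654 and both wild-type mice. Apoe is highest in mouse 671 and Fabp7 in mouse 698.

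Genes near Ttpa were read because earlier results of these data had named them. Necab1, a calcium-binding protein gene at 5.06 Mb from the start of Ttpa on chromosome 4, stood at 15.9 and 48.0 CPM in deficient mice, 8.37 and 42.1 CPM in supplemented mice, and 14.7 and 17.9 CPM in wild-type mice. It was high in the deeper mouse of each Ttpa-/- group only, and its log2 fold change for deficient over wild-type mice, 1.19 ± 0.40, did not pass (edgeR adjusted p = 0.999). Necab1 was also a gene of the Nrp1-led cluster, at 97.6 CPM there and 7.88 CPM in the other members. That cluster made up 19.7% and 19.1% of Pvalb neurons in mice 657 and 671 and 10.3% to 14% in the other mice, and its part in the Necab1 values was not tested. Gm10600, a predicted gene 22.2 Mb from Ttpa, stood at 27.8 and 16.4 CPM in deficient mice, 25.1 and 16.6 CPM in supplemented mice, and 7.33 and 9.92 CPM in wild-type mice. All 4 Ttpa-/- values were higher, from 6 to 13 UMIs per mouse, and it did not pass (edgeR adjusted p = 0.999). Car8, another gene of the region, had 0 UMIs in all 4 Ttpa-/- mice and 1 and 2 UMIs in wild-type mice, too few for a fold change in these cells.

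Beside Wdfy1 no gene of the lists was called, and the lists that follow are described by counts and medians, where the median log2 fold change of all genes tested was -0.01 for deficient and 0.00 for supplemented over wild-type mice. The proprioceptor genes outside the rule had 3 of 12 members above and 9 below 0 for deficient over wild-type mice, with a median of -0.10, and 7 above and 5 below for supplemented over wild-type mice, with a median of 0.01. Etv1 had log2 fold changes of -0.09 ± 0.18 and -0.17 ± 0.18 in these comparisons, and Slc17a7 had -0.06 ± 0.18 and 0.06 ± 0.18. Pcdh8, a protocadherin, was at 87.4 and 58.1 CPM in deficient mice, 62.7 and 120 CPM in supplemented mice, and 134 and 81.4 CPM in wild-type mice, which overlapped. Of the 14 cytoskeletal genes 10 were above 0 for deficient over wild-type mice, with a median of 0.06. Of 18 release genes 10 were above 0, with a median of 0.04, and of 16 potassium and HCN channel genes 10 were above 0, with a median of 0.18. Sodium channel genes had 5 of 8 members above 0 (median 0.05), mechanotransduction genes 1 of 5 (median -0.04), calcium handling genes 4 of 15 (median -0.08) and axon injury genes 7 of 10 (median 0.20).

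Growth factor receptors had 5 of 6 members above 0 for deficient over wild-type mice, with a median of 0.43, and 3 of 6 for supplemented over wild-type mice, with a median of 0.04. Ret, the receptor of the GDNF family, stood at 135 and 134 CPM in deficient mice, 62.7 and 98.2 CPM in supplemented mice, and 103 and 76.4 CPM in wild-type mice. Ngfr stood at 159 and 203 CPM in deficient mice, 151 and 149 CPM in supplemented mice, and 130 and 140 CPM in wild-type mice. For both genes the deficient values were above the wild-type values, and neither passed (edgeR adjusted p = 0.999 each). Ret had a UMI in 69.7% of the Nrp1-led cluster, which made up 11.6% and 19.7% of Pvalb neurons in deficient mice, 10.3% and 19.1% in supplemented mice, and 10.4% and 14% in wild-type mice; its part in these values was not tested.

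Neither of the peptide genes Tac1 and Calcb passed (edgeR adjusted p = 0.999 each). Tac1, which encodes substance P, stood at 222 and 141 CPM in deficient mice, 226 and 125 CPM in supplemented mice, and 194 and 297 CPM in wild-type mice, and the groups overlapped. Calcb, which encodes a calcitonin gene-related peptide, stood at 55.6 and 50.5 CPM in deficient mice, 41.8 and 43.3 CPM in supplemented mice, and 34.8 and 21.8 CPM in wild-type mice, without overlap. Heat shock and unfolded protein genes had 6 of 17 members above 0 for deficient over wild-type mice, with a median of -0.06. Among them Hspa5, the chaperone BiP of the endoplasmic reticulum, stood at 95.3 and 90.9 CPM in deficient mice, 100 and 139 CPM in supplemented mice, and 198 and 115 CPM in wild-type mice. Both deficient values were below both wild-type values, and it did not pass (edgeR adjusted p = 0.999).

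Antioxidant genes, of which many are targets of the transcription factor NRF2, had 10 of 26 members above and 16 below 0 for deficient over wild-type mice, with a median of -0.04, and 13 on each side for supplemented over wild-type mice. Hmox1, haem oxygenase, had 3 and 12 UMIs in deficient mice, 0 and 14 UMIs in supplemented mice, and 6 and 4 UMIs in wild-type mice, and did not pass. Gpx4 stood at 949 and 974 CPM in deficient mice, 941 and 890 CPM in supplemented mice, and 890 and 1131 CPM in wild-type mice, with log2 fold changes of -0.12 ± 0.17 and -0.18 ± 0.17. Vitamin E and lipid transport genes had 6 of 9 members above 0 for deficient over wild-type mice, with a median of 0.13, and 3 of 9 for supplemented over wild-type mice, with a median of -0.15. Lipid peroxidation genes had 3 of 8 members above 0 in both comparisons, with medians of -0.14 and -0.04. Cholesterol synthesis genes had 10 of 21 above 0 for deficient mice, with a median of -0.03, and 11 of 21 for supplemented mice, with a median of 0.01.

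No transcript of the mitochondrial genome passed, but all 13 had a negative log2 fold change for deficient over wild-type mice, with a median of -0.44, and for supplemented over wild-type mice, with a median of -0.56. In each comparison 8 of 13 had an unadjusted p under 0.05, beside 3.91% and 4.26% of all genes tested. The 2 comparisons share the wild-type mice, so they are not independent. Their summed level was 24864 and 40949 CPM in deficient mice, 21676 and 33978 CPM in supplemented mice, and 48187 and 38805 CPM in wild-type mice. Mouse 657 was above mouse 699, and the 2 shallow libraries were the lowest. Without those libraries, which left 1 mouse in each Ttpa-/- group, the medians were -0.17 and -0.34, with 12 and 13 of 13 below 0. The mitochondrial share of UMIs per cell is also a measure of cell quality in droplet data, and its part in these values was not tested. mt-Co2, a subunit of cytochrome c oxidase, stood at 1509 and 2011 CPM in deficient mice, 1464 and 1702 CPM in supplemented mice, and 2621 and 2263 CPM in wild-type mice. Its 4 Ttpa-/- values were all lower, with edgeR adjusted p of 0.999 and 0.429 in the comparisons with wild type. The 38 nuclear respiratory chain genes had 32 members below 0 for deficient over wild-type mice, with a median of -0.13, and 25 above 0 for supplemented over wild-type mice, with a median of 0.08. That second median was -0.10 without the 2 shallow libraries. The first median was -0.05, with 25 members below 0, without the Fabp7-led cluster, and -0.03 without mouse 657. Small respiratory chain genes are among those that lead that cluster, so leaving it out is no independent check. It made up 23.3% and 16.5% of Pvalb neurons in deficient mice, 35.9% and 25.3% in supplemented mice, and 31.1% and 28.7% in wild-type mice. Its part in these values was not tested.

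Immediate early genes, which rise within minutes of activity or dissociation, had 13 of 14 members below 0 for deficient over wild-type mice, with a median of -0.21, and 8 of 14 for supplemented over wild-type mice, with a median of -0.06. Fosb, a component of the factor AP-1, stood at 87.4 and 46.7 CPM in deficient mice, 109 and 88.0 CPM in supplemented mice, and 75.1 and 100 CPM in wild-type mice. The groups overlapped, and none of the list passed.

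**Figure D4:**
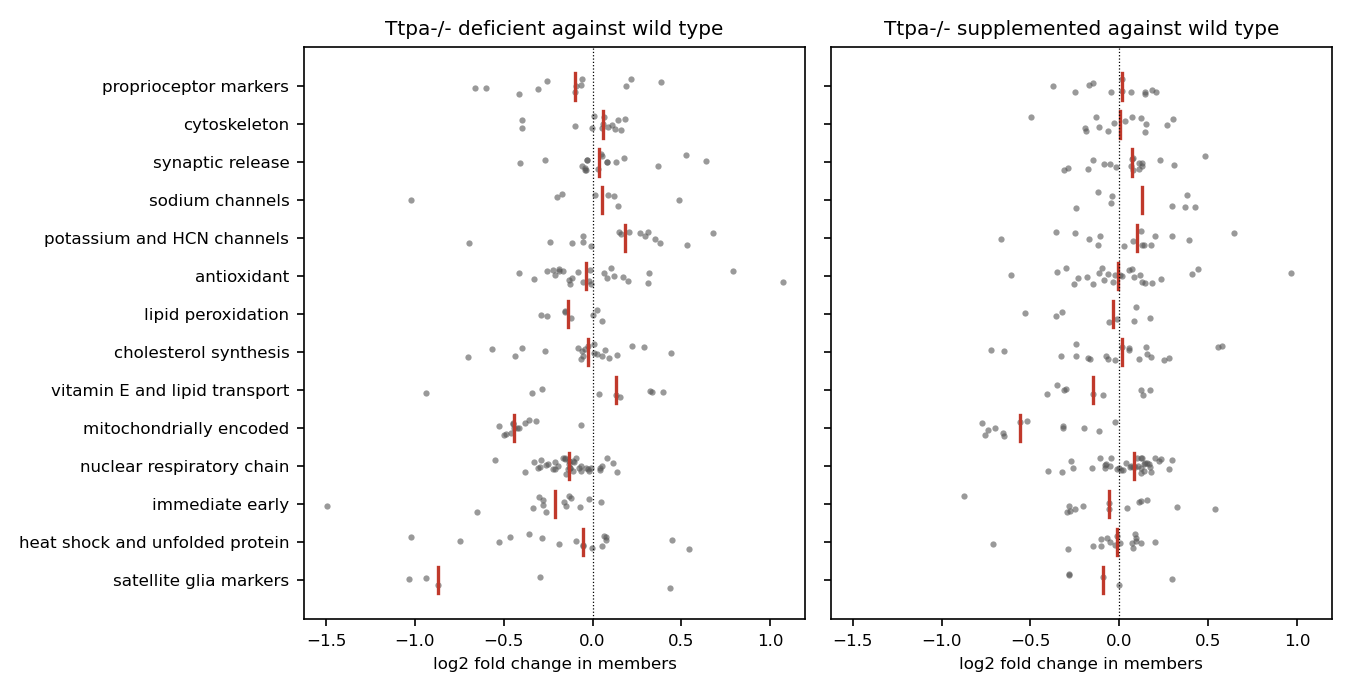
Log2 fold change in Pvalb neurons of each tested gene of the gene lists (rows), for deficient against wild-type mice (left) and supplemented against wild-type mice (right), which share the wild-type mice. Each point is 1 gene and the red bar is the list's median. The 13 mitochondrially encoded genes lie below 0 in both panels, with medians of -0.44 and -0.56, and the satellite glia median in the left panel is -0.87.

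Whether the difference from wild type was the same in Pvalb neurons as in other Nefh neurons was tested as the difference of the 2 effects, with mouse as a block, over 9367 genes. For deficient against wild-type mice 2 genes (0.0214%) passed, for supplemented against wild-type mice 1 (0.0107%), and for both diets against wild-type mice 4 (0.0427%). Apoe, which carries lipids out of glia, passed in all 3. In Pvalb neurons it stood at 71.5 and 110 CPM in deficient mice, 121 and 204 CPM in supplemented mice, and 192 and 175 CPM in wild-type mice. In other Nefh neurons it stood at 101 and 80.1 CPM in deficient mice, 104 and 143 CPM in supplemented mice, and 56.9 and 51.6 CPM in wild-type mice. In other Nefh neurons both wild-type values were below all 4 Ttpa-/- values, and in Pvalb neurons they were above all but that of mouse 671. The difference of the effects was -1.58 ± 0.23 on the log2 scale for deficient mice (edgeR adjusted p = 0.000333), -1.33 ± 0.21 for supplemented mice (edgeR adjusted p = 0.00132) and -1.45 ± 0.19 for both (edgeR adjusted p = 1.52e-05).

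Fabp7, a fatty acid-binding protein of satellite glia, passed for both diets together with a difference of -1.29 ± 0.26 (edgeR adjusted p = 0.0325). In Pvalb neurons it stood at 19.9 and 87.1 CPM in deficient mice, 41.8 and 145 CPM in supplemented mice, and 192 and 90.3 CPM in wild-type mice, which overlapped. Apoe and Fabp7 are satellite glia markers, and their UMIs were concentrated: 87 Apoe UMIs of mouse 657 lay in 20 of its 127 Pvalb neurons, with 20 in 1 cell. The summed level of the satellite glia list in Pvalb neurons, given above, was lowest in the deficient mouse 654 and highest in the wild-type mouse 698. Without the 192 cells of the Fabp7-led cluster neither gene passed, with differences for both diets of -0.87 for Apoe (edgeR adjusted p = 0.598) and 0.30 for Fabp7. Both genes are among those that lead this cluster. Leaving it out removes cells grouped by their levels, so it is no independent check of the calls. Fabp7 also did not pass without the wild-type mouse 698, at -0.88 (edgeR adjusted p = 0.805), nor Apoe for supplemented mice without the wild-type mouse 699 (edgeR adjusted p = 0.307). Within Pvalb neurons alone Apoe had a log2 fold change of -0.94 ± 0.23 for deficient over wild-type mice and did not pass (edgeR adjusted p = 0.299).

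The other 3 were Nts, Wbp5 and Tmem255a. Nts, the neuropeptide neurotensin, passed for deficient mice (edgeR adjusted p = 0.00296), but of 50 UMIs in mouse 699, 48 came from 1 cell, and without that mouse it did not pass. Tmem255a, a membrane protein gene, stood at 354 and 380 CPM in Pvalb neurons of deficient mice, 297 and 352 CPM in those of supplemented mice, and 557 and 412 CPM in those of wild-type mice. In other Nefh neurons all 6 values lay between 44.1 and 63.8 CPM. The difference for both diets was -0.79 ± 0.16 (edgeR adjusted p = 0.0457), and all 4 Ttpa-/- mice were below both wild-type mice in Pvalb neurons. Wbp5 had a difference of -0.96 ± 0.19 (edgeR adjusted p = 0.0325), with 290 and 154 CPM in Pvalb neurons of deficient mice, 247 and 203 CPM in those of supplemented mice, and 256 and 272 CPM in those of wild-type mice. Tmem255a did not pass without either wild-type mouse, nor Wbp5 without mouse 671 or 699. Without the 2 shallow libraries 1 mouse was left in each Ttpa-/- group, so counts of passing genes are not given for that setting.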

How the data were processed

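The authors deposited 1 table of raw UMI counts, 27998 genes by 21685 cells, and each cell was given to its mouse by its column name. Per the submitters' processing notes, the tools included bcl2fastq 2.17.1.14, Cell Ranger 2.0.1, Seurat 2.3.0 and limma 3.32.10, with mm10; the selection of cells is not stated there. No further cell filter was applied, and 0 members had under 500 genes or over 20% mitochondrial UMIs. Counts of members were summed per mouse (239071 to 1007676 UMIs), and CPM are these sums scaled to 1000000. edgeR 4.0.16 in R 4.3.3 (TMM, filterByExpr, quasi-likelihood test, 1 mean per group, all 6 mice) was fitted to all genes, with Benjamini-Hochberg adjustment at 0.05 in each of 4 contrasts. The biological coefficient of variation was 11.4%. The comparison with other Nefh neurons used mouse as a block. Subclusters came from scanpy 1.11.5 (2000 variable genes, 20 components, 15 neighbours, Leiden resolution 0.5). Doublets were called per mouse with scrublet at 0.8% per 1000 cells and kept, except in an alternative. Log2 ratios between populations used CPM + 5. The count scripts were tested on simulated data for deficient against wild-type mice. Of 50 genes changed 1.5-fold, 2-fold or 4-fold, 5, 25 and 49 were recovered, and 2, 14 and 47 in the test of unequal effects. Recovery is given by fold only, not by UMI count or by spread between mice. It therefore cannot be read as the recovery of real genes with few UMIs or a wide spread between mice of a group. There were 4 false calls over 7426 genes tested. A count of 0 calls therefore does not show that no gene changed. Per contrast, genes past the threshold with average log2 CPM of 4 or more and no overlap were to be named, and with fewer than 5 such genes the 5 with the smallest p were, with up to 2 per direction and list. The members and lists were chosen with earlier results of these data known. Alternatives were DESeq2 1.42.0, limma-voom (limma 3.58.1), other size factors, no filter on low counts, sex as a term, other cell rules, thinned sums, and leaving out mice or subclusters.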

Additional observations from a re-analysis of the deposited data

Results flagged for a closer look

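In 7 results the difference from wild type in Pvalb neurons was not that in other Nefh neurons of the same mice, by a test of that difference (edgeR quasi-likelihood, Benjamini-Hochberg adjustment). On the log2 scale the difference of effects was -1.58 for Apoe and -4.06 for Nts in deficient mice, and -1.33 for Apoe in supplemented mice. For both diets together it was -1.45 for Apoe, -1.29 for Fabp7, -0.96 for Wbp5 and -0.79 for Tmem255a. The Nts value rested on 1 cell of mouse 699. Apoe and Fabp7 did not pass without the Fabp7-led cluster, but both genes lead that cluster, so this is no independent check. Groups of 2 mice were too small to look for single mice that stood apart.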

How the results depend on the processing

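With 2 mice a group and 1 shallow library in each Ttpa-/- group, counts of calls were unstable. For deficient against wild-type mice, supplemented against wild-type mice, deficient against supplemented mice and both diets against wild-type mice, in that order, the main counts were 1, 0, 0 and 1. They were 3, 9, 3 and 6 without a filter on low counts, 3, 4, 1 and 5 without doublets, and 2, 7, 3 and 6 without the 2 shallowest libraries (chosen after seeing the data). Leaving out 1 mouse gave 2 to 9, 3 to 9, 2 to 7 and 3 to 11. For deficient mice the count was 0 with DESeq2, limma-voom, sex as a term, the stricter rule, thinned sums, and without the Nrp1-led and Fxyd2-led clusters. For both diets it was 0 with these except sex as a term. For supplemented mice it was 3 with limma-voom, 1 with the stricter rule, 5 with the looser rule, 7 with at most 3 other-type UMIs per cell, 3 without the Nrp1-led and Fxyd2-led clusters and 5 without the Fabp7-led cluster. For deficient against supplemented mice the looser rule gave 7 and at most 3 other-type UMIs 1; for both diets the looser rule gave 3, and at most 3 other-type UMIs and leaving out the Fabp7-led cluster gave 5 each.

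The counts of unequal effects in Pvalb and other Nefh neurons, 2 for deficient, 1 for supplemented and 4 for both diets, were 9 each against all other cells, 15, 7 and 18 without the shallowest libraries, and 7, 5 and 8 without the Nrp1-led and Fxyd2-led clusters. Thinned sums gave 1 for deficient mice and 1 for both diets, as did leaving out the Fabp7-led cluster. Leaving out 1 mouse gave 2 to 12, 0 to 5 and 2 to 8. Resolution 1 gave 10 subclusters in place of 6.

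Leaving out 1 mouse gave deficient over wild-type log2 fold changes of -0.24 to 2.52 for Wdfy1, -0.13 to 1.49 for Necab1 and -1.74 to 0.065 for Pdia4, with the sign turned without mouse 657. Without the Fabp7-led cluster they turned to 0.13 for Apoe and 0.71 for Fabp7, and the Fabp7 difference of effects to 0.30. With at most 3 other-type UMIs Fabp7 was at 0.35. Apoe and Fabp7 lead that cluster, and other-type UMIs include those of Fabp7. Both alternatives thus select cells by glial genes and are no independent check of Apoe and Fabp7. Hjurp ranged between -3.50 and 0.44 for deficient over supplemented mice, the second value without mouse 671. The causes were not tested. Of the alternatives for single named genes, 704 kept direction and side of the threshold, 75 newly passed, 31 no longer passed and 8 changed sign. Leaving out 1 mouse moved the difference in share between -1.93 and 0.41 points for deficient, -2.11 and 0.25 for supplemented and -1.80 and 0.10 for both diets against wild type, and between -1.01 and 1.35 for deficient against supplemented mice. The differences in median UMIs per cell moved between -2309 and 364.5, -2104 and -579.5, -1664 and -650.5, and -967 and 1706 in the same order. No paired analysis was possible because mouse numbers are not shared between groups; matching the 1 female and 1 male of each group by sex as a term gave 0, 0, 0 and 1 calls. At this depth a gene under about 4 CPM rests on single UMIs in the shallow libraries.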
